A study of Mus musculus with 225 samples.

Results

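Autopod cells of the mouse forelimb were compared according to whether they held transcripts of *Msx1*, a gene for a homeodomain transcription factor. The groups were chosen by the measured reads themselves: a cell was called *Msx1*-positive with 5 or more reads of *Msx1* in the raw counts and *Msx1*-negative with fewer. Of 76 autopod cells among the 199 cells of the normalized table, 46 were *Msx1*-positive (60.5%, exact binomial 95% interval 48.6 to 71.6%) and 30 were *Msx1*-negative.

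All cells came from E12.5 embryos heterozygous for *Hoxd11::GFP*, a tau-GFP knock-in within the coding sequence of *Hoxd11*, on a mixed C57Bl6CBAF1 background. Positive, negative and zeugopod cells share this genotype, and no group without the allele was compared. Since GFP followed *Hoxd11* and only the brightest cells were sorted, limb cells with less GFP were not sampled. Forelimbs of several embryos were pooled before capture in a Fluidigm C1 system, where the polyadenylated RNA of every cell is copied in a separate chamber. As the labels do not tie cells to embryos, the autopod counts as 1 pooled sample without replicates, and no significance test was made over its cells. The intervals of shares cover the counting of cells only, because cells of 1 pool are not replicates. Reads without molecular identifiers are not independent molecules, so intervals of summed reads cover the counting of reads only.

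*Msx1* and its paralogue *Msx2* are activated by BMP signals in many embryonic tissues, and in the limb bud they are known for expression beneath the apical ectodermal ridge and between the digits. Mesenchymal cells near the ridge proliferate and remain undifferentiated, whereas cells of the digit rays switch on *Sox9* and then the collagens of cartilage. The autopod is the part of the limb from which the hand forms, and the zeugopod the part from which the forearm forms.

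The run NXT0072 held 59 of the retained autopod cells and the run NXT0143 held 17. Reads on genes ranged from 187344 to 9437447 in *Msx1*-positive cells (median 3107328) and from 261335 to 6293607 in *Msx1*-negative cells (median 2705633.5). The tissue label was checked with *Shox2*, a gene of the proximal limb, which reached 5 reads in 0 of 76 autopod cells, a count that allows a share of up to 3.95%, and in 73 zeugopod cells (59.3%). *Hoxd13*, a gene of the autopod, reached 5 reads in 65 of the 76 autopod cells and in 1 zeugopod cell. The normalized table held 58 zeugopod cells of the run NXT0142 and 65 of NXT0143.

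*Msx1* lies on the minus strand of chromosome 5 (GRCm38, chr5:37820485-37824583, ENSMUSG00000048450) and shares no exon with another gene of the GENCODE annotation. The 250 bases upstream of its RefSeq start (GRCm38.p6, chr5:37824586-37824835, minus strand) are shown because this gene defines the groups. Capitals mark the letters CCAAT on either strand, which occur 2 times here and at least once in 33.8% of 32851 upstream windows of the same length.
Msx1 upstream: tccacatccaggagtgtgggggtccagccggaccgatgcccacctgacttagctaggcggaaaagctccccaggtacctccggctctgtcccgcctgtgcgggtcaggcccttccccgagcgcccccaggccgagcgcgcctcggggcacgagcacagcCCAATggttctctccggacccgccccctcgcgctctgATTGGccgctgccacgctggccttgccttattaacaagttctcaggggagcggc
The letters GGCGCC, held by 9.59% of those windows, and TAATTG, held by 7.17%, searched on both strands, do not occur in this window. No measurement of binding was made in these data, so the letters are a description of the sequence alone.

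*Msx1* reads separated the cells widely. Of the 76 cells, 27 held no read of *Msx1*, and the 3 cells just below the criterion held 1, 1 and 3 reads. The positive cells nearest to it held 10, 28 and 32 reads, and 7 of them held 10 to 99. Further up, 39 cells held 100 or more reads and 25 held 1000 or more, with a median of 1420.5 and a highest value of 27508 among positive cells. On the normalized scale, in which reads are corrected by spike-ins and divided by gene length in kb, positive cells ranged from 0.968 to 14667 with a median of 593. A cell without reads sat at 0.323, and the highest negative cell at 1.61, so the groups overlapped at the low end of this scale. These values chose the groups and are a description only.

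**Figure D1:**
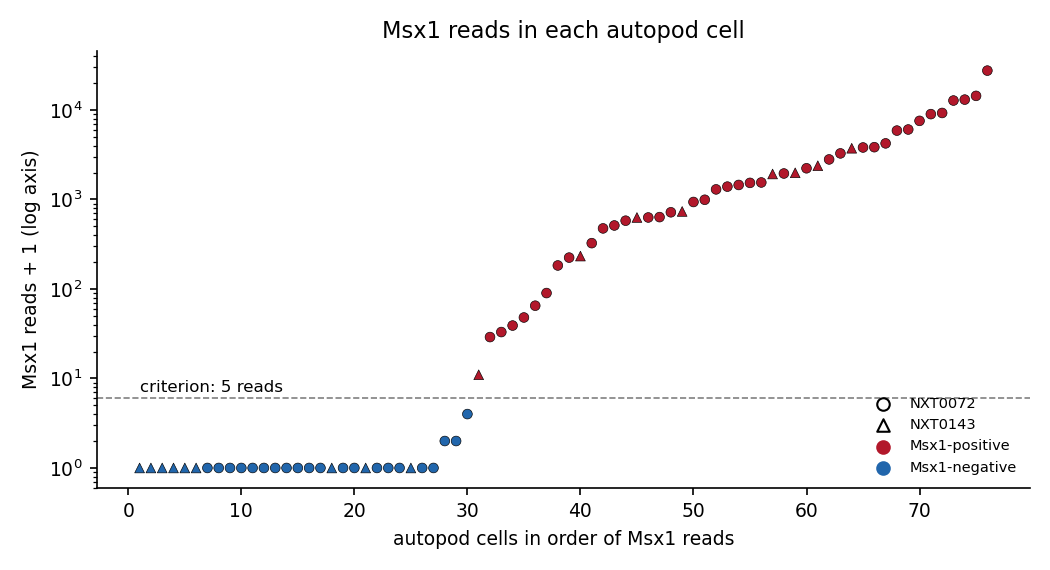
*Msx1* reads plus 1 (log axis) in each of the 76 autopod cells, in order; red marks *Msx1*-positive and blue *Msx1*-negative cells, circles NXT0072 and triangles NXT0143. The highest negative cell held 3 reads and the lowest positive cell 10, with no cell between these values at the dashed line of 5 reads.

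The positive share was 64.4% in NXT0072 (38 of 59 cells, 50.9 to 76.4%) and 47.1% in NXT0143 (8 of 17 cells, 23 to 72.2%), with overlapping intervals. In the zeugopod 2 cells reached 5 reads (1.63%, 0.198 to 5.75%), with 149 and 137 reads, both in NXT0142. The zeugopod share lies below that of the autopod in either run.

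*Msx1*-positive cells also had more genes detected. The number of genes with 1 or more reads ranged from 2151 to 6162 in positive cells (median 3847.5) and from 1992 to 5833 in negative cells (median 3402), so the groups overlapped over most of their range. The medians were 3727 and 2916 in NXT0072, and 4251 and 3566 in NXT0143. After each cell had been thinned to 500000 reads, which left 44 positive and 28 negative cells, the medians were 3024 and 2665. Across the 76 cells the Spearman coefficient between normalized *Msx1* and genes detected was 0.36, and it was 0.39 over the 59 cells of NXT0072, as a description of cells that share pool, run and library preparation.

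**Figure D2:**
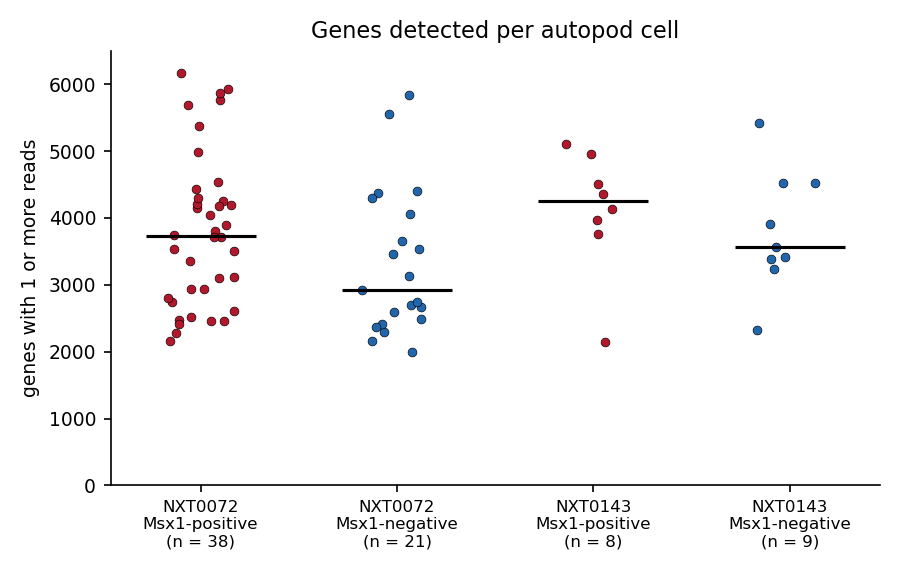
Genes with 1 or more reads in each autopod cell, by run and *Msx1* group; points are cells and bars are medians. The medians of positive cells (3727 and 4251) lie above those of negative cells (2916 and 3566) in each run, and the groups overlap.

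Genes were compared by the difference of their mean log2(normalized value + 1), positive minus negative, over 4700 genes that reached 5 reads in 25% or more of either group. On this scale the change of a low gene is understated. The median of all compared genes was 0.48 rather than 0, beside the larger number of genes detected in positive cells. A difference of 1 or more was found for 1159 genes (24.7%) and one of -1 or less for 165 genes (3.51%), so 87.5% of the genes counted were higher in positive cells. Within NXT0072 alone, 4610 genes were compared, 1414 were higher by 1 or more (30.7%), 168 were lower (3.64%) and the median was 0.57. With run and genes detected as terms of a least squares fit, the median was 0.07, 497 genes were higher (10.6%), 359 were lower (7.64%), and the share of higher genes among those counted was 58.1%. That share was 73.7% with log2(CPM + 1), where CPM is reads per 1000000 reads on genes, and 69.2% after thinning. Relative to the median of all genes, 469 genes were higher and 477 lower. Differences below are given pooled unless a run or both terms are named, and are to be read against these medians.

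Genes known from distal limb progenitors were higher in *Msx1*-positive cells. Of 18 genes on this list, 14 passed the filter on low values; 13 of these differed by 1 or more and none by -1 or less, where 24.7% of all compared genes were higher by that much. Their median difference was 2.07 pooled and 2.09 within NXT0072, beside 0.48 and 0.57 over all compared genes. With both terms 11 of 14 were higher by 1 or more, beside 10.6% of all compared genes, and the median was 1.48. Within NXT0143, 11 of 15 were higher and 2 lower by 1 or more, beside 34.8% and 16.8% of all compared genes, with a median of 1.76. Of the 14 members, 6 (*Msx2*, *Lhx2*, *Prrx2*, *Dach1*, *Mycn* and *Tfap2b*) passed the filter only through the positive group. They had to be found in a larger share of positive cells, so the count is in part fixed by the filter. *Sall1*, *Sall3* and *Sall4*, zinc finger genes of the limb, were found in too few cells to be compared, in 5, 6 and 7 positive and in 7, 3 and 2 negative cells, and *Lin28b* was not in the normalized table. The list was chosen with earlier results of these data known, so its direction is not independent evidence.

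*Lhx9*, a LIM homeodomain gene of the distal mesenchyme (chr1:138825186-138848577, minus strand), showed the largest difference among the genes named here. It reached 5 reads in 38 of 46 positive cells (82.6%, 68.6 to 92.2%) and in 9 of 30 negative cells (30%, 14.7 to 49.4%). Its normalized values ran from 0.105 to 2138 with a median of 244 in positive cells, and from 0.105 to 253 with a median of 0.105, the floor for 0 reads, in negative cells. Most positive cells were thus high and most negative cells at the floor, although the ranges overlapped. The difference was 5.16 on the log2 scale pooled, 5.42 in NXT0072, 3.74 in NXT0143 and 4.54 with both terms. After thinning, 35 of 44 positive and 7 of 28 negative cells still held 5 or more reads. As summed reads, *Lhx9* stood at 1304 CPM in positive cells (Poisson interval 1298 to 1309) and 58.6 CPM in negative cells (57 to 60.3). These intervals treat each amplified read as an independent count and leave out the spread between cells.

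*Msx2* (chr13:53466884-53473074, minus strand) followed *Msx1* closely. It was found in 31 of 46 positive cells (67.4%, 52 to 80.5%) and in 4 of 30 negative cells (13.3%, 3.76 to 30.7%). Normalized values reached 3646 in positive cells (lowest 0.305, median 19.3) and 217 in negative cells (lowest and median 0.305). The difference was 4.07 pooled, 4.18 in NXT0072, 3.75 in NXT0143 and 3.50 with both terms. Read the other way, 31 of the 35 cells with *Msx2* were *Msx1*-positive (88.6%, 73.3 to 96.8%), against 15 of the 41 cells without it (36.6%, 22.1 to 53.1%). In the group of NXT0072 cells with fewer genes detected (16 positive, 13 negative) the difference was 1.64, and in that with more genes detected (22 positive, 8 negative) it was 6.15.

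The *Dlx* genes, homeodomain partners of *Msx* factors in several tissues, were represented by *Dlx5*. It was found in 25 positive cells (54.3%, 39 to 69.1%) and in 1 negative cell (3.33%, 0.0844 to 17.2%). The median normalized value was 7.36 in positive cells, with a highest value of 10263, and 0.701 in negative cells, with a highest value of 14. *Dlx5* differed by 3.22 pooled, 3.65 in NXT0072, 1.05 in NXT0143 and 2.53 with both terms. *Dlx5* passed the filter only through the positive group. *Dlx6* was found in 6 positive and 0 negative cells and did not pass the filter.

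*Dach1*, a transcriptional cofactor gene of the distal limb bud, was found in 30 positive cells (65.2%, 49.8 to 78.6%) and in 6 negative cells (20.0%, 7.71 to 38.6%), and differed by 3.20 pooled, 3.03 in NXT0072 and 2.71 with both terms. *Tfap2b*, an AP-2 transcription factor gene, was found in 21 positive and 2 negative cells and in 0 zeugopod cells, a count that allows up to 2.44%. In NXT0072 all 18 cells with *Tfap2b* were *Msx1*-positive, and its highest normalized value was 1989 in positive cells and 6.46 in negative cells. *Mycn*, a growth-promoting transcription factor gene of the bHLH class, was found in 16 positive and 3 negative cells and differed by 1.74 pooled and 1.51 with both terms.

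*Wnt5a*, which encodes a ligand that guides distal outgrowth, was found in nearly all positive cells and in most negative ones, in 45 of 46 and 25 of 30. The groups therefore differed in its level: the median normalized value was 432 in positive cells and 55.8 in negative cells, and the difference was 2.74 pooled, 3.17 in NXT0072, 0.90 in NXT0143 and 1.95 with both terms. *Prrx1*, *Prrx2* and *Twist1*, mesenchymal transcription factor genes, were found in 34, 21 and 32 positive and in 13, 6 and 11 negative cells, with pooled differences of 1.62, 1.98 and 1.87. With both terms *Prrx1* differed by 0.69. *Lhx2*, a LIM homeodomain gene related to *Lhx9*, was found in 26 positive and 7 negative cells and differed by 1.94 pooled. Its difference was -0.71 among NXT0072 cells with fewer genes detected and 4.72 among those with more. *Jag1*, a Notch ligand gene, was the compared member of the list that differed by less than 1: it was found in 30 positive and 19 negative cells and differed by 0.28.

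**Figure D3:**
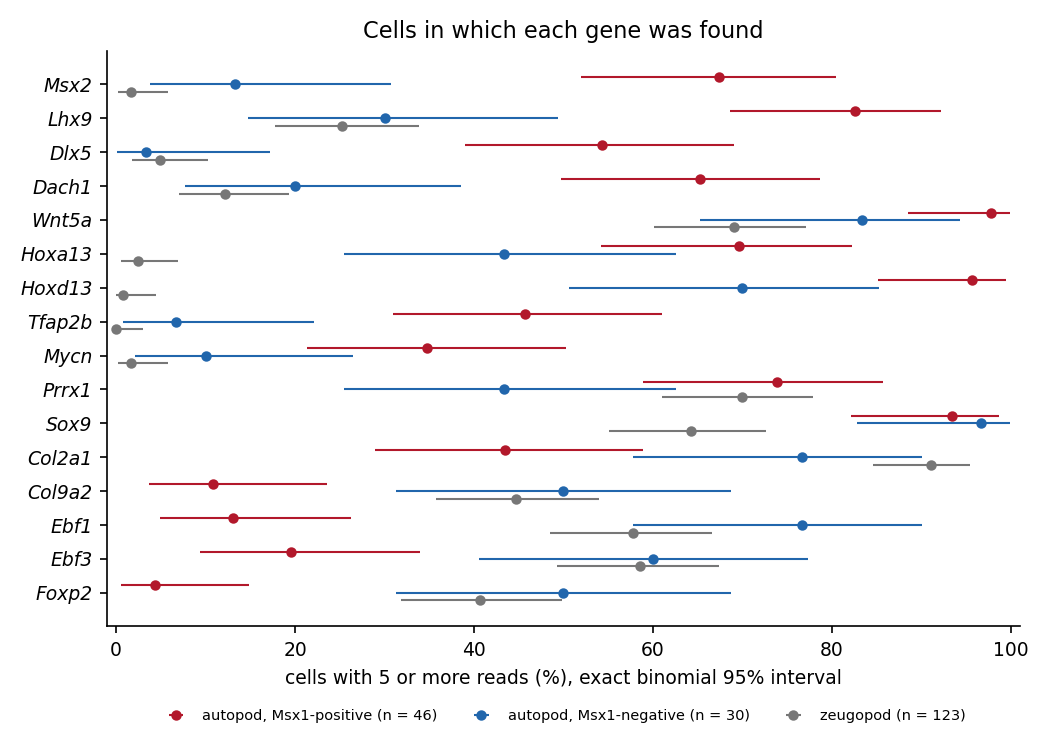
Share of cells with 5 or more reads of each gene (%), with exact binomial 95% intervals, in *Msx1*-positive autopod cells (red), *Msx1*-negative autopod cells (blue) and zeugopod cells (grey). *Lhx9*, *Msx2*, *Dlx5* and *Dach1* are found in 54.3 to 82.6% of positive cells and 3.33 to 30% of negative cells, whereas *Ebf1*, *Col9a2* and *Foxp2* are found more often in negative cells.

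Among *Hox* genes, which set position along the limb, the largest differences were those of *Hoxa13* and *Hoxd13*, the genes most closely tied to the autopod. *Hoxa13* was found in 32 positive cells (69.6%, 54.2 to 82.3%) and 13 negative cells (43.3%, 25.5 to 62.6%), and differed by 2.69 pooled, 2.65 in NXT0072, 2.41 in NXT0143 and 2.29 with both terms. *Hoxd13* was found in 44 positive cells (95.7%, 85.2 to 99.5%) and 21 negative cells (70%, 50.6 to 85.3%), with median normalized values of 1238 and 267. Its difference was 2.47 pooled, 1.59 in NXT0072 and 1.18 with both terms, but -0.50 among NXT0072 cells with more genes detected, and its summed reads were 1022 CPM in positive and 1242 CPM in negative cells. *Hoxd12* differed by 1.08 pooled, 0.37 in NXT0072 and 0.27 with both terms, and *Hoxa10* by 1.47, 0.95 and 0.61. *Hoxd11*, whose locus drove the GFP used for sorting, was found in 42 positive and 25 negative cells and differed by 0.21, *Hoxa9* by 0.04, and *Hoxd10* by -0.46. Of 10 genes on the *Hox* list, 8 were compared, 4 were higher by 1 or more and none was lower by that much, beside 24.7% and 3.51% of all compared genes, and the median was 0.98. Within NXT0072, 2 of 8 were higher, beside 30.7%. With both terms 2 were higher and 1 lower, beside 10.6% and 7.64%, and the median was 0.40. *Hoxd9* and *Hoxa11* were found in 2 positive cells each, and in 4 and 3 negative cells. Since *Hoxa13*, *Hoxd13* and *Hoxd12* are also on the distal progenitor list, the counts of these lists overlap.

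The 2 *Msx1*-positive cells without *Hoxd13* stood against 44 with it, whereas 9 of 30 negative cells lacked it. Of the 11 autopod cells without *Hoxd13*, 2 were *Msx1*-positive (18.2%, 2.28 to 51.8%), against 44 of 65 with it (67.7%, 54.9 to 78.8%).

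Genes of cartilage differentiation had a negative median difference pooled and within NXT0143, but one near 0 within NXT0072. Of 20 genes on the list, 9 passed the filter; 3 of these differed by -1 or less and none by 1 or more, where 3.51% of all compared genes were lower by that much, and the median was -0.76. With both terms 3 of 9 were lower by 1 or more, beside 7.64% of all compared genes, and the median was -0.66. Within NXT0143, 11 of 12 members were lower by 1 or more and none higher, where 16.8% of 6303 compared genes were lower and 34.8% higher, with a median of -2.75 over 8 positive and 9 negative cells. Within NXT0072, which held 38 positive and 21 negative cells, 2 of 10 were lower, beside 3.64% of compared genes, and the median was 0.033. Among NXT0072 cells with fewer genes detected the median was -0.69, and among those with more it was 0.16. *Col9a2* and *Col9a3* passed the filter only through the negative group. After thinning the pooled median was -1.34.

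*Col2a1*, the main fibrillar collagen gene of cartilage (chr15:97975602-98004695, minus strand), was found in 20 of 46 positive cells (43.5%, 28.9 to 58.9%) and in 23 of 30 negative cells (76.7%, 57.7 to 90.1%). Its median normalized value was 0.743 in positive and 73.9 in negative cells, with highest values of 4679 and 4907. The upper ends of the groups were alike while the medians lay far apart. The difference was -3.27 pooled, -1.93 in NXT0072, -6.26 in NXT0143 and -2.75 with both terms. In NXT0072 the gene was found in 15 of 38 positive and 14 of 21 negative cells.

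*Col9a2*, a chain of the collagen that coats cartilage fibrils, was found in 5 positive cells (10.9%, 3.62 to 23.6%) and 15 negative cells (50%, 31.3 to 68.7%). It differed by -3.32 pooled, -1.35 in NXT0072, -7.89 in NXT0143 and -2.92 with both terms. *Col9a3*, another chain of that collagen, differed by -1.82 pooled and -0.62 in NXT0072, and by 0.12 among NXT0072 cells with more genes detected. *Col9a1* and *Col11a1*, further cartilage collagen genes, differed by -0.45 and -0.69 pooled, by 0.24 and -0.06 in NXT0072 and by -2.85 and -2.66 in NXT0143. *Wwp2*, a ubiquitin ligase gene on the list, differed by -0.94 pooled, 0.65 in NXT0072 and -5.03 in NXT0143. *Acan*, *Col11a2*, *Matn4* and *Hapln1*, which encode proteins of mature cartilage matrix, were found in 3, 1, 1 and 1 positive cells and in 7, 3, 4 and 4 negative cells and were not compared. The receptor gene *Fgfr3* and the transcription factor genes *Runx2* and *Runx3*, also not compared, were found in 11, 5 and 3 positive cells and in 6, 1 and 1 negative cells.

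*Sox9*, the transcription factor gene that starts the cartilage programme, was found in nearly every autopod cell. It was found in 43 of 46 positive cells (93.5%, 82.1 to 98.6%) and in 29 of 30 negative cells (96.7%, 82.8 to 99.9%), with median normalized values of 898 and 869. The difference was -0.45 pooled, -0.21 in NXT0072 and -0.56 with both terms. Its partners *Sox5* and *Sox6* differed by -0.33 and -0.76 pooled, by 0.54 and 0.13 in NXT0072 and by -2.29 and -2.36 in NXT0143. Among positive cells 20 held *Sox9* and *Col2a1* together and 23 held *Sox9* alone; among negative cells these counts were 23 and 6. No cell of either group held *Col2a1* without *Sox9*.

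Counted by markers, cells with 3 or more of *Sox9*, *Col2a1*, *Acan*, *Col9a1* and *Matn1* made up 14 of 46 positive cells (30.4%, 17.7 to 45.8%) and 21 of 30 negative cells (70%, 50.6 to 85.3%). By run they were 13 of 38 and 14 of 21 in NXT0072, and 1 of 8 and 7 of 9 in NXT0143, so the share was lower in positive cells in each run, although the intervals overlapped within each run. The summed level of these markers ranged from 0.58 to 27802 CPM in positive cells (median 1316) and from 24.6 to 23501 CPM in negative cells (median 2926), and *Matn1* was at 0 in all autopod cells.

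Distal and cartilage genes were then counted in each cell. Of 17 distal progenitor genes in the table, a median of 10.5 was found per positive cell (range 4 to 15) and 4.5 per negative cell (2 to 11). Of 17 cartilage genes, the medians were 4 (1 to 12) and 7 (1 to 14). In NXT0072 the medians for cartilage genes were 4 and 5, and in NXT0143 they were 3 and 10. *Msx2* and *Col2a1* were found together in 12 of 46 positive cells and 4 of 30 negative cells; doublets were not called, and their part in such cells was not tested.

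**Figure D4:**
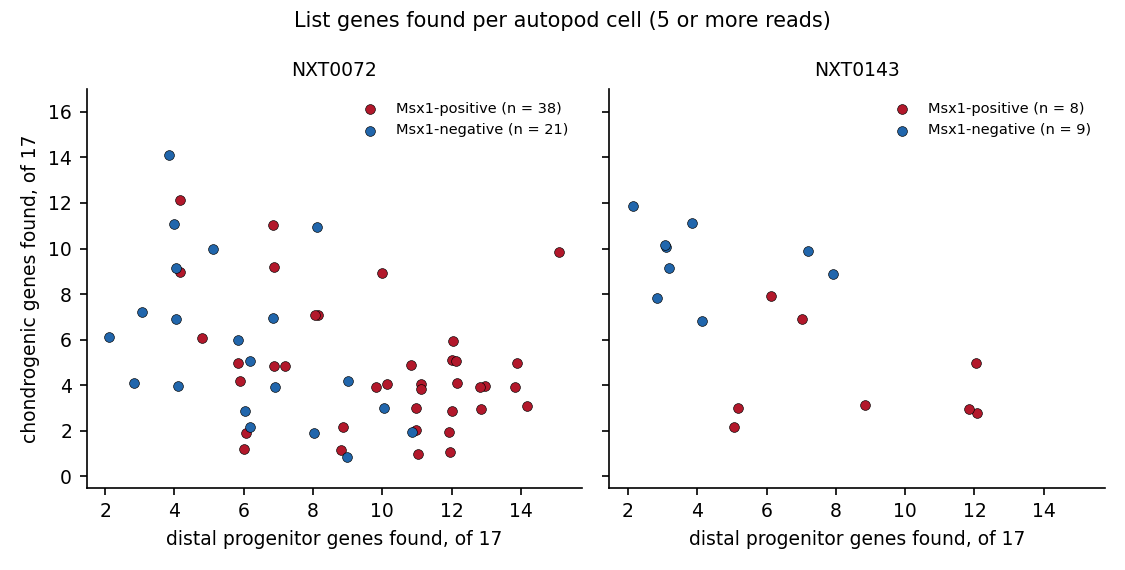
Distal progenitor genes found per cell (of 17, horizontal axis) against cartilage genes found (of 17, vertical axis), for NXT0072 and NXT0143; points are cells, moved slightly apart, red *Msx1*-positive and blue *Msx1*-negative. Positive cells lie further right, with medians of 11 against 6 in NXT0072 and 8 against 3 in NXT0143, whereas the cartilage medians are 4 against 5 and 3 against 10.

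Apart from *Col2a1* and *Col9a2*, the 10 most negative differences were those of *Ebf1*, *H19*, *Ebf3*, *Foxp2*, *Sulf1*, *Sfrp2*, *Vcan* and *Tpd52l2*. Like *Col9a2*, the genes *Ebf1*, *Ebf3* and *Foxp2* passed the filter only through the negative group, so their direction is in part fixed by the filter. *Ebf1*, an early B-cell factor gene also used in mesenchymal lineages (chr11:44617317-45008091, plus strand), was found in 6 positive cells (13%, 4.94 to 26.3%) and in 23 negative cells (76.7%, 57.7 to 90.1%). Its median normalized value was at the floor of 0.107 in positive cells and 21.7 in negative cells, with highest values of 709 and 7261. It differed by -3.95 pooled, -2.60 in NXT0072, -7.06 in NXT0143 and -3.87 with both terms. Summed reads of *Ebf1* stood at 71.9 and 1090 CPM (Poisson intervals 70.6 to 73.2 and 1083 to 1098, which leave out the spread between cells).

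*Ebf3*, of the same family, was found in 9 positive and 18 negative cells and differed by -3.23 pooled, -3.51 in NXT0072, -2.79 in NXT0143 and -3.49 with both terms, a difference of similar size in the 2 runs. It shares exon sequence with an antisense gene, and since the counting is not stated to use strand, reads of the pair cannot be told apart. *Foxp2*, a forkhead gene, was found in 2 positive cells (4.35%, 0.531 to 14.8%) and 15 negative cells (50%, 31.3 to 68.7%). Its highest normalized value was 17.5 in positive cells and 869 in negative cells, and the difference was -2.90 pooled, -2.52 in NXT0072 and -2.80 with both terms.

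*Sfrp2*, which encodes a secreted Wnt modulator, differed by -2.59 pooled, -2.69 in NXT0072 and -2.68 with both terms, and was found in 16 positive and 23 negative cells. *Sulf1*, an extracellular sulfatase gene, differed by -2.74 pooled and *Vcan*, the gene of the matrix proteoglycan versican, by -2.48. *Vcan* was found in 38 positive and all 30 negative cells, so it differed in level, with medians of 11.7 and 243. *H19*, an imprinted non-coding RNA gene, was found in 37 positive and 29 negative cells and differed by -3.50 pooled and -4.12 with both terms; its medians were 285 and 3167. *Tpd52l2* differed by -2.47. *Sulf1*, *Vcan*, *H19* and *Tpd52l2* were lower in each run, at -2.27, -1.37, -2.80 and -1.65 in NXT0072. Their sign within NXT0072 follows from the rule by which these genes were named.

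On the list of tendon and connective tissue genes, 8 of 20 were compared, 2 were higher by 1 or more and 2 were lower, beside 24.7% and 3.51% of all compared genes, and the median was -0.05 pooled and 0.13 in NXT0072. With both terms 2 were higher and 3 lower, beside 10.6% and 7.64%, and the median was -0.28. *Col1a2*, *Col5a2* and *Col3a1*, which all encode fibrillar collagens, differed by 1.68, 1.57 and -1.80. *Sparc*, which encodes a collagen-binding matrix protein, differed by -1.95. *Col3a1* and 1 other member of the list passed the filter only through the negative group. Of the joint genes, *Erg*, a transcription factor gene of the joint and its surrounding cartilage, was found in 3 positive and 12 negative cells and differed by -1.28. *Gdf5*, the growth factor gene of the joint interzone, was found in 6 and 8 cells and differed by -1.09 pooled but 0.47 in NXT0072. *Erg* and *Gdf5* passed the filter only through the negative group.

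**Figure D5:**
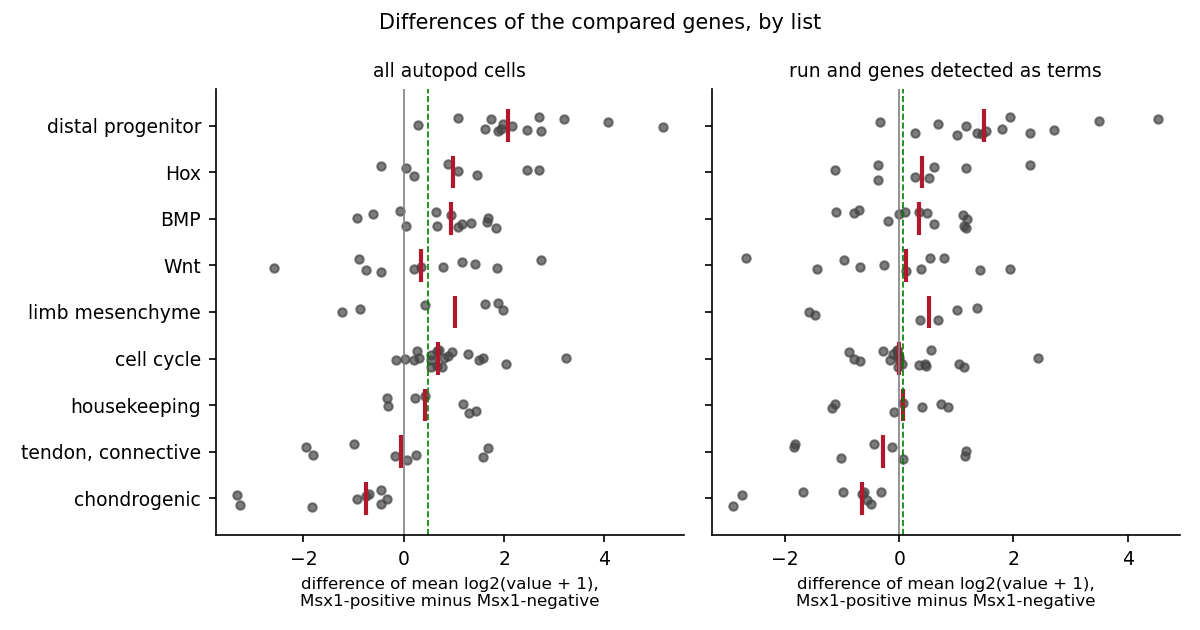
Difference of mean log2(normalized value + 1), *Msx1*-positive minus *Msx1*-negative, for the compared genes of 9 lists, over all 76 autopod cells (left) and with run and genes detected as terms (right); points are genes, red bars medians, the dashed line the median of all 4700 compared genes. The distal progenitor median is 2.07 on the left and 1.48 on the right, the cartilage median -0.76 and -0.66, and the dashed line moves from 0.48 to 0.07.

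Signalling genes were compared by pathway. On the BMP list 13 of 20 genes were compared, 6 were higher by 1 or more and none was lower, beside 24.7% and 3.51% of all compared genes, and the median was 0.94 pooled, 1.06 in NXT0072 and 0.09 in NXT0143. With both terms 4 were higher and 1 lower, beside 10.6% and 7.64%, and the median was 0.35. The receptor gene *Bmpr2* differed by 1.66 pooled and 1.13 with both terms, the signal transducer *Smad5* by 1.84 pooled and -1.20 in NXT0143, the pseudoreceptor *Bambi* by 1.67 pooled and -0.85 in NXT0143, and the inhibitor *Smad7* by 1.35 pooled and 1.17 with both terms. The *Id* genes, direct targets of BMP signals and named here after their values had been seen, were found in most cells of each group, apart from *Id4*: *Id1* was found in 45 positive and 28 negative cells, *Id2* in 43 and 30 and *Id3* in 46 and 28, with differences of 0.94, -0.07 and 0.67 pooled and 0.35, -0.71 and 0.00 with both terms. *Id4* was found in 10 and 9 cells and differed by -0.93.

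On the Wnt list 11 of 20 genes were compared, 4 were higher by 1 or more, 1 (*Sfrp2*) was lower, beside 24.7% and 3.51% of all compared genes, and the median was 0.35. With both terms 2 were higher and 2 lower, beside 10.6% and 7.64%, and the median was 0.11. Among the higher members, *Wnt5a* is also on the distal progenitor list and was counted there. *Lef1*, a nuclear effector of Wnt signals, was found in 24 positive and 7 negative cells and differed by 1.85 pooled, 2.26 in NXT0072 and 1.41 with both terms. *Ctnnb1*, the beta-catenin gene, differed by 1.43 pooled and 0.38 with both terms. On the FGF list 7 of 12 were compared and 1 was higher by 1 or more, beside 24.7% of all compared genes: *Dusp6*, a phosphatase gene induced by FGF signals, was found in 32 positive and 12 negative cells and differed by 2.51 pooled, 2.12 in NXT0072 and 2.21 with both terms. The FGF list had a median of -0.08 pooled and 0.35 in NXT0072, with the receptor gene *Fgfr1* at -0.75 pooled and -0.25 in NXT0072. The Notch list had 4 compared genes and a median of 0.09, with the receptor gene *Notch2* at 1.53, the ligand gene *Jag1* at 0.28 and the target genes *Hey2* and *Hes1* at -0.10 and -0.29. The hedgehog list had 4 compared genes and a median of -0.12, with the effector genes *Gli3* and *Gli2* at 1.26 and -0.17 and the receptor pathway genes *Smo* and *Ptch1* at -0.08 and -0.63. With both terms *Notch2* differed by 1.25 and *Gli3* by 0.60.

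Genes of the interdigital mesenchyme and retinoid signalling were represented by 4 compared genes with a median of 0.86. Of these, *Aldh1a2* and *Bmp2* passed the filter only through the positive group, so this median is in part fixed by the filter. *Rarg*, a retinoic acid receptor gene, differed by 2.13 pooled and 1.58 with both terms. *Aldh1a2*, which encodes a retinoic acid synthesising enzyme and marks interdigital cells, was found in 12 positive and 5 negative cells and differed by 0.85. Its summed reads were 434 CPM in positive and 478 CPM in negative cells. Cells with 2 or more of *Aldh1a2*, *Msx2* and *Bmp7* made up 13 of 46 positive cells (28.3%, 16 to 43.5%) and 4 of 30 negative cells (13.3%, 3.76 to 30.7%), a count to which *Msx2* contributed.

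Cell cycle genes were compared in the same way. Of 24 on the list, 20 were compared and 5 were higher by 1 or more, beside 24.7% of all compared genes, and the median was 0.68 pooled, 0.47 in NXT0072 and -0.01 with both terms. Within NXT0143, 12 of 18 were higher, beside 34.8% of all compared genes, and the median was 1.86, beside 0.49 over all genes. *Mcm5*, *Mcm3* and *Mcm6*, subunits of the replicative helicase, differed by 3.24, 2.03 and 1.59 pooled and by 2.43, 1.13 and 1.04 with both terms. *Top2a*, a mitotic topoisomerase gene, differed by 1.5 pooled and 0.46 with both terms. Cells with 3 or more of *Mki67*, *Top2a*, *Ccnb1* and *Cdk1* made up 13 of 46 positive cells (28.3%, 16 to 43.5%) and 5 of 30 negative cells (16.7%, 5.64 to 34.7%), with overlapping intervals, and 11 of 38 and 5 of 21 within NXT0072.

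Of 14 housekeeping genes, 7 were compared and 3 were higher by 1 or more, beside 24.7% of all compared genes; with both terms none was higher and 2 were lower, beside 10.6% and 7.64%. The median was 0.42 pooled and 0.07 with both terms, beside 0.48 and 0.07 over all genes. *Tuba1a*, *Rplp0*, *Actb* and *Eef1a1* differed by 1.45, 1.31, 1.17 and 0.42 pooled and by 0.86, 0.73, 0.39 and -0.09 with both terms. Outside the lists, the cofactor gene *Trim28* differed by 3.55 pooled and 2.31 with both terms, and *2700029M09Rik* by 3.19 and 2.42. The mitochondrial genes *Chchd1*, *Sdhd* and *Hadh* differed by 3.49, 3.46 and 3.34 pooled and 2.98, 2.66 and 2.36 with both terms. All of these genes were named for their large pooled differences, so their direction follows from that choice. No list of mitochondrial genes was counted. *Chchd1* shares exon sequence with an antisense gene. Among NXT0072 cells with more genes detected, *Trim28* differed by 0.64, and *Lhx9* by 6.37.

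Of the early response genes, which are known to be induced by tissue dissociation, 13 of 14 were compared, 3 were higher by 1 or more and 1 was lower, beside 24.7% and 3.51% of all compared genes, and the median was 0.04 pooled, 0.69 in NXT0072 and -0.49 after thinning. With both terms 3 were higher and 2 lower, beside 10.6% and 7.64%, and the median was -0.17. *Dusp1* differed by 2.26, *Hspa1a* and *Hspa1b*, whose near-identical sequences make the split of reads between them uncertain, by 1.37 and 1.20, and *Egr1* by -1.45. With both terms these values were 1.80, 1.51, 1.20 and -1.60. *Hspa1a* and *Hspa1b* passed the filter only through the positive group, and 1 other member only through the negative group. The counts of this list are thus in part fixed by the filter.

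Markers of other cell types were rarely found. Cells passing the marker criterion for muscle, tendon, epithelium, endothelium or macrophages numbered 0 of 46 positive and 0 of 30 negative cells, which allows shares of up to 6.52% and 10%. *Myod1*, *Myog* and *Myf5*, *Tnmd*, *Krt14*, *Krt5*, *Cdh1* and *Krt8*, *Emcn* and *Cx3cr1* were at 0 in all autopod cells. The largest summed level was that of the epithelial markers in a positive cell, at 1442 CPM, and came from *Epcam* alone. Of 4 blood markers, 1 was in the counts, so the blood criterion of 3 markers could not be met. Cells with 2 or more of the limb mesenchyme markers *Prrx1*, *Prrx2*, *Twist1* and *Pdgfra* made up 36 of 46 positive cells (78.3%, 63.6 to 89.1%) and 12 of 30 negative cells (40%, 22.7 to 59.4%), and 3 of these 4 are also members of the distal list. *Tbx5*, a forelimb gene, was found in 16 cells of each group and differed by -1.23 pooled but 0.80 in NXT0072. *Xist*, found in cells of female embryos, reached 5 reads in 18 of 46 positive cells (39.1%, 25.1 to 54.6%) and 16 of 30 negative cells (53.3%, 34.3 to 71.7%), with overlapping intervals, so cells of female embryos were in each group.

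The genes whose values most resembled *Msx1* across the 76 autopod cells, by partial Spearman coefficient allowing for genes detected, were *Msx2* (0.66), *Lhx9* (0.64), *Dlx5* (0.56) and *Dach1* (0.53), followed by *Slc25a33* (0.50), *Mfsd5* (0.48), *Kif26b* (0.46), *Atp6v1g3* (0.45), *Gtf3c4* (0.42) and *Cdh11* (0.42). Over the 59 cells of NXT0072 the first 4 stood at 0.63, 0.66, 0.57 and 0.44. The lowest coefficients were those of *Ebf1* (-0.51), *Ebf3* (-0.48), *Col9a2* (-0.48), *Zfp518a* (-0.47) and *Fam101a* (-0.45). The cells share pool and library preparation, and the coefficients are a description without a test.

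*Msx2*, *Lhx9*, *Dlx5* and *Dach1* were counted together in each cell, as a description only, since they were chosen for their likeness to *Msx1* in these cells and a difference between the groups follows from that choice. Of 46 positive cells, 16 held all 4 genes, 15 held 3, 4 held 2, 7 held 1 and 4 held none. Of 30 negative cells, 0 held all 4, 1 held 3, 4 held 2, 9 held 1 and 16 held none. Among the 46 positive cells alone, the highest Spearman coefficients of normalized *Msx1* with the genes looked at were 0.56 (*Msx2*), 0.53 (*Wnt5a*) and 0.44 (*Lhx9*). They were 0.40, 0.33 and 0.32 when genes detected were allowed for. For *Hoxd13* the coefficient was 0.31, and 0.08 with that allowance. The cartilage genes *Sox9* and *Col2a1* stood at 0.18 and -0.12, and at 0.11 and -0.10 with that allowance.

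*Cdh11*, a mesenchymal cadherin gene, was found in 43 positive and 23 negative cells and differed by 3.08 pooled and 1.90 with both terms. *Kif26b*, a kinesin gene, was found in 29 positive and 4 negative cells and differed by 2.63 pooled. *Atp6v1g3*, which encodes a subunit of the vacuolar proton pump, was found in 15 positive cells (32.6%, 19.5 to 48%), in 0 of 30 negative cells and in 1 zeugopod cell, and differed by 2.53 pooled and 2.20 with both terms. *Cdh11*, *Kif26b* and *Atp6v1g3* were chosen for their likeness to *Msx1*, so a difference between the groups follows from that choice. *Kif26b* and *Atp6v1g3* also passed the filter only through the positive group.

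The same genes were counted in the zeugopod cells. *Msx2* was found in 2 zeugopod cells (1.63%, 0.198 to 5.75%), *Dlx5* in 6, *Hoxa13* in 3, *Mycn* in 2 and *Lhx2* in 9. *Lhx9* was found in 31 (25.2%), *Wnt5a* in 85 (69.1%) and *Prrx1* in 86 (69.9%). *Ebf1* was found in 71 zeugopod cells (57.7%), *Ebf3* in 72 (58.5%), *Foxp2* in 50 (40.7%), *Col9a2* in 55 (44.7%) and *Col2a1* in 91.1% of them. For *Ebf1*, *Ebf3*, *Foxp2* and *Col9a2* the zeugopod share lay above that of *Msx1*-positive autopod cells (13%, 19.6%, 4.35% and 10.9%). It lay below that of *Msx1*-negative autopod cells (76.7%, 60%, 50% and 50%), with overlapping intervals. The intervals are no test, since the cells of a pool are not replicates. These genes were chosen for their negative differences and passed the filter only through the negative group. Their low shares in *Msx1*-positive cells and higher shares in *Msx1*-negative cells follow in part from that choice. Runs and tissues overlap only within NXT0143, so tissue and run cannot be told apart in most of these cells.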

How the data were processed

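Polyadenylated RNA of single cells from E12.5 forelimbs was amplified with the SMARTer kit on a Fluidigm C1 chip, made into Nextera XT libraries and sequenced together with ERCC spike-ins. The authors mapped reads to mm10 (GRCm38) using bowtie2 (local mode) and deposited raw counts of 23165 genes and 92 spike-ins; versions of the aligner and counter are not given in the sources used here, and the counting is not stated to use strand. They also deposited a normalized signal of 10948 genes for the cells kept by their quality filter, in which counts were divided by spike-in size factors from scran and by gene length in kb, with a floor of 1 divided by length for a gene without reads. The columns of the spike-in counts did not follow the column names, so spike-ins were not used.

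Cells were grouped by *Msx1* reads with Python 3.11.15, numpy 2.4.6, pandas 2.3.3 and scipy 1.17.1. The members and the 23 gene lists were chosen with earlier results of these data known. A gene was called found in a cell at 5 reads and detected at 1 read, and differences were those of mean log2(signal + 1). A gene that passed the filter through 1 group alone had to be found in a larger share of that group. Counts and medians of lists are thus in part fixed by the filter. Examples beyond those named above are *Lef1* and *Gli2* (positive group) and *Id4* and *Hey2* (negative group). In the alternatives cells were thinned without replacement to 500000 reads (seed 42; 2 positive and 2 negative cells were shallower and left out, and groups were kept as before thinning), or a least squares fit held run and log2 genes detected as terms, or the cells of NXT0072 were split at 3528 genes detected. Shares have Clopper-Pearson 95% intervals, sums of reads have exact Poisson intervals, and beside a count of 0 stands the share of 3 cells. The calculation was tested on simulated data. Named genes were the compared members of the distal progenitor, cartilage, *Msx*/*Dlx* and *Hox* lists, at most 4 of each other list, the 10 largest and 10 smallest differences with the same sign within NXT0072 and after thinning, and the 10 highest and 5 lowest partial Spearman coefficients with *Msx1*. *Shox2*, *Xist*, *Id1* to *Id4* and members found in few cells were named beside this rule. Reads of *Chchd1*, *Col9a3*, *Ctnnb1*, *Dlx6*, *Dusp1*, *Ebf3*, *Fgfr1*, *Fgfr3*, *Gdf5*, *Gli3*, *H19*, *Hoxa11*, *Hspa1a*, *Kif26b*, *Lef1*, *Matn4*, *Runx2*, *Sall4*, *Sfrp2*, *Slc25a33*, *Sox5* and *Wnt5a* cannot be told apart from those of annotated genes on the opposite strand that share exon sequence with them. *Col3a1*, *Ctnnb1*, *Eef1a1*, *H19*, *Hoxa9*, *Hoxd10*, *Hoxd11*, *Notch2*, *Smad5*, *Top2a*, *Tpd52l2*, *Tuba1a*, *Wwp2* and *Zfp518a* share exon sequence with a gene on their own strand. Gene positions are those of GENCODE M21 (GRCm38), and the upstream sequence is from RefSeq. No test was made because the labels name no embryo per cell, doublets were not called, and the 20 autopod cells outside the normalized table were not compared.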

Additional observations from a re-analysis of the deposited data

How the results depend on the processing

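The *Msx1*-positive share stayed within its interval under the other criteria for *Msx1*, after thinning and in NXT0072 alone; it was 47.1% in NXT0143 alone. Genes higher by 1 or more numbered 467 with a pseudocount of 10, 2194 in NXT0143 alone, 497 with run and genes detected as terms, 756 and 1771 among NXT0072 cells with fewer and with more genes detected, and 469 relative to the median of all genes. Genes lower numbered 314 with log2(CPM + 1), 261 and 46 with pseudocounts of 0.1 and 10, 1062 in NXT0143 alone, 379 after thinning, 359 with both terms, 418 and 1312 among NXT0072 cells with fewer and with more genes detected, and 477 relative to the median. The distal progenitor median was positive under each alternative run and moved to 1.25 with a pseudocount of 10 and 1.16 among NXT0072 cells with fewer genes detected. The cartilage median was -1.49 with log2(CPM + 1), -1.17 and -0.44 with pseudocounts of 0.1 and 10, -0.48 without a filter, -1.20 with *Msx1* called at 1 read, -1.34 after thinning and -2.75 in NXT0143 alone. It changed sign in NXT0072 alone (0.033) and among its cells with more genes detected (0.16), but not among those with fewer (-0.69); the cause was not tested.

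Over 95 named genes and 7 alternatives, 600 of 665 differences kept the sign of the pooled value. Genes named for the largest or smallest differences were chosen to have the same sign within NXT0072 and after thinning. The count of kept signs is thus in part fixed by that choice. Of genes past 1 or -1, the sign changed in NXT0143 alone for *Bambi* (-0.85) and *Smad5* (-1.20), and in NXT0072 alone for *Gdf5* (0.47) and *Tbx5* (0.80). Among NXT0072 cells with fewer genes detected it changed for *Ctnnb1* (-0.10), *Gdf5* (1.19), *Hoxa10* (-0.53), *Lhx2* (-0.71), *Mcm3* (-0.21) and *Top2a* (-0.87). Among those with more it changed for *Col9a3* (0.12), *Hoxd12* (-1.70), *Hoxd13* (-0.50), *Tbx5* (0.64) and *Twist1* (-0.13). The cause was not tested. The group with more genes detected held 8 negative cells and NXT0143 held 9, which limits both. No paired analysis was possible because the numbers in the labels name cells.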

Other observations

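*Atp6v1g3* was found in 15 autopod cells, and all 15 were *Msx1*-positive and held *Lhx9*. *Lhx9* itself was found in 47 of 76 autopod cells and in 38 of the 46 *Msx1*-positive cells. Both genes were among those most like *Msx1* in these cells, and *Atp6v1g3* passed the filter only through the positive group. The genes lie on chromosome 1, 536 kb apart in the GENCODE annotation, and share no exons. This pair was looked at after its values were seen and was not tested. *Slc25a33*, another gene that resembled *Msx1*, was found in 19 cells, of which 18 were *Msx1*-positive and 16 held *Msx2*. Among the 46 *Msx1*-positive cells, *Msx2* was found in 31. *Slc25a33* shares exon sequence with an antisense gene.

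The 20 autopod cells outside the normalized table had a median of 274.5 genes detected (range 15 to 2350), and 0 of 20 reached 5 reads of *Msx1*, a count that allows a share of up to 15%.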
